A study of Homo sapiens with 5 samples.

Results

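The autophagy machinery was examined as a set of 36 genes that make up, select cargo for or regulate the autophagosome. The genes were chosen by name, with earlier results of these data known. They were the ATG genes, the ULK and phosphatidylinositol 3-kinase (PI3K) complexes, 4 genes of the LC3 and GABARAP family and 4 cargo receptors. The transcription factors TFEB and TFE3 were also included. All 36 were found among the 20030 gene symbols listed for each library, and all 36 were among the 11728 genes that reached 1 FPKM in any library and were tested. FPKM is the number of sequenced fragments of a gene per kilobase of its transcript, scaled by the total counted in that library.

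RNA sequencing was done on HCT116, an established human colorectal cancer cell line, after transfection with small interfering RNAs (siRNAs), short duplexes that lower the transcript they match. The groups were control cells (2 libraries, called control 1 and control 2), cells with SP1 knockdown (1 library), cells with SP3 knockdown (1 library) and cells with knockdown of both (1 library, called the double knockdown). The sources used here do not give the siRNA sequences and doses, the hours of treatment or whether the controls came from separate cultures. P-values therefore reflect the spread of these samples alone, and that spread may be technical. Each knockdown stands on 1 library, and a change that an siRNA causes beyond its target cannot be told apart from the effect of the knockdown.

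In autophagy, a membrane sheet grows around cytoplasm, closes into an autophagosome and is delivered to the lysosome. The ULK kinase complex starts the process, a PI3K complex marks the site with a lipid, the WIPI and ATG2 proteins and ATG9A supply membrane, and 2 ubiquitin-like conjugation reactions attach ATG12 to ATG5 and LC3 or GABARAP proteins to the membrane lipid. Cargo receptors then bind both the cargo and the attached LC3 or GABARAP protein. SP1 and SP3 are related zinc finger transcription factors that bind GC boxes, which are GC-rich elements found in the promoters of many widely expressed genes.

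The libraries had 14678068 to 15970519 counted reads. SP1 had 36.6 and 37.2 FPKM in the controls, 15.8 with SP1 siRNA, 27.5 with SP3 siRNA and 16.1 in the double knockdown. SP3 had 13.3 and 13.002 FPKM in the controls, 14.3 with SP1 siRNA, 5.42 with SP3 siRNA and 6.67 in the double knockdown. Each targeted transcript was thus lowest in the 2 libraries that received its siRNA, and SP1 also fell with SP3 siRNA alone, by 0.41 ± 0.07 on the log2 scale (SE; limma, adjusted p = 0.000165; 0.284 in the additive model described further on). Epithelial markers were abundant (summed level of 10 markers 3775 to 4641 FPKM, most of it KRT8 and KRT19). Of the 7 tested, 4 fell in each knockdown, and 1, 1 and 2 rose with SP1 siRNA, SP3 siRNA and both. Over all genes tested, 28.8%, 32.1% and 31.1% fell. KRT18 went from 750.4 and 739.8 FPKM in the controls to 408, 284 and 153 FPKM with SP1 siRNA, SP3 siRNA and both, and CLDN4 from 629.8 and 625 to 221, 224 and 181 FPKM. Endothelial markers summed to at most 0.452 FPKM. The 8 fibroblast markers summed to 9.01 and 9.10 FPKM in the controls, 6.63 with SP1 siRNA, 8.43 with SP3 siRNA and 4.52 in the double knockdown, most of it COL1A1. The 12 leukocyte markers summed to 91.5 and 89.2 FPKM in the controls, 60.2 with SP1 siRNA, 95.6 with SP3 siRNA and 77.5 in the double knockdown, with most of each sum from CD68. Of the 8 leukocyte markers tested, 6, 7 and 6 fell in these 3 knockdowns and 1 rose in each, where 28.8%, 32.1% and 31.1% of all genes tested fell. LYZ, the lysozyme gene of myeloid cells, had 11.1 and 12.2 FPKM in the controls and at most 0.258 FPKM in each knockdown library, and TYROBP was at 0 in all 3. What part these differences between the controls and the knockdown libraries had in the values of the autophagy genes was not tested. In bulk RNA, fewer cells of a type and less RNA per cell cannot be told apart.

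In the controls the autophagy genes ranged from 0.649 FPKM (ATG10) to 173 FPKM (SQSTM1), with a median of 9.99 FPKM against 7.17 over all genes tested. The cargo receptor SQSTM1, also called p62, and the 4 LC3 and GABARAP genes were among the 6 most abundant, with OPTN. The E2-like enzyme ATG10 and the kinase ULK2 were the scarcest. Between the 2 controls the 36 genes differed by -0.19 to 0.13 on the log2(FPKM + 1) scale (median 0.006), where the SD over all genes tested was 0.133. A member had 77 to 10594 recovered reads in a library, so that counting error alone gave ATG10 a 95% Poisson interval of 0.547 to 0.847 FPKM in control 1 and ATG12 one of 41.8 to 44.9 FPKM.

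**Figure D1:**
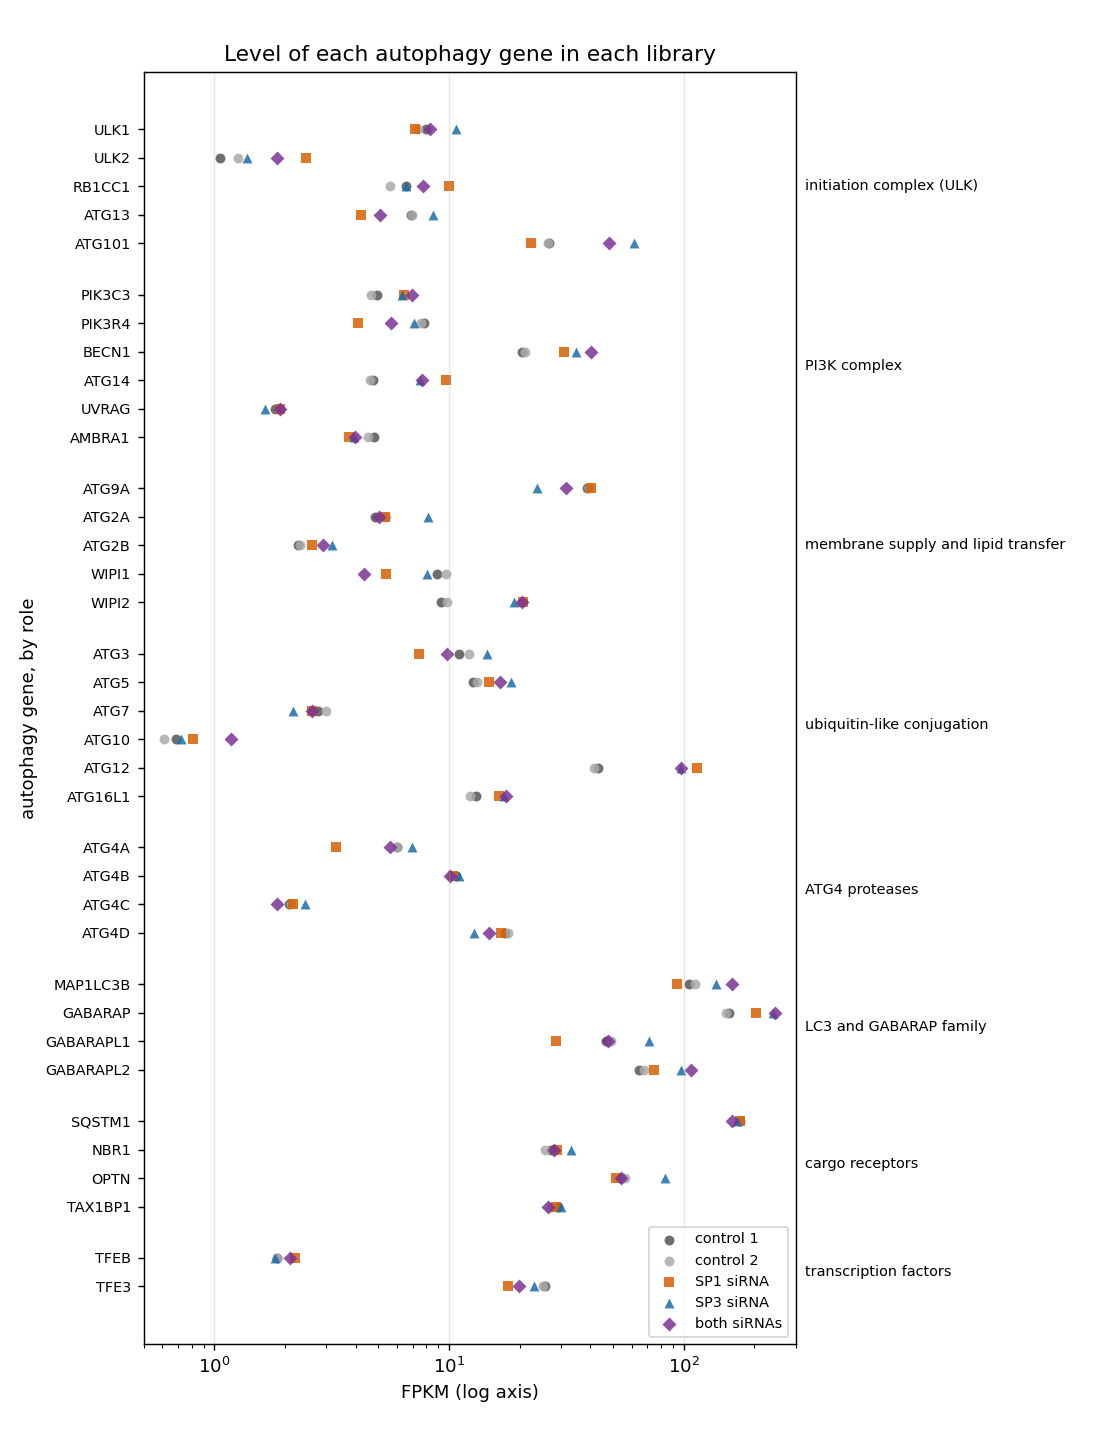
The level of each of the 36 autophagy genes, grouped by role on the vertical axis, in each of the 5 libraries on a log axis of FPKM, with 1 symbol per library. The 2 controls lie close together for most genes, whereas ATG12, WIPI2 and BECN1 have all 3 knockdown libraries above both controls.

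More autophagy genes rose than fell with SP3 siRNA, and rises and falls were near equal in number with SP1 siRNA. A gene was called where limma gave a Benjamini-Hochberg adjusted p under 0.05 over all genes tested. With SP1 siRNA, 10 of 36 rose and 9 fell, where 65.4% of all genes tested were called (36.5% higher, 28.8% lower). With SP3 siRNA, 19 of 36 rose and 3 fell, where 61.6% of all genes were called (29.6% higher, 32.1% lower). In the double knockdown 14 of 36 rose and 7 fell, where 63% of all genes were called (31.9% higher, 31.1% lower). The median log2 difference of the 36 genes was 0.03 with SP1 siRNA, 0.29 with SP3 siRNA and 0.06 in the double knockdown, against 0.06, -0.02 and 0.01 over all genes tested. The share called in either direction among the autophagy genes (19, 22 and 21 of 36) was near the background in each comparison, while the 19 rises with SP3 siRNA made up 52.8% of the genes. The background depended on level. Among 7127 genes that averaged at least 5 FPKM, 2686 rose and 2287 fell with SP3 siRNA. Their median was 0.045, and that of the 28 autophagy genes among them 0.34.

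These calls rest on the assumption that each knockdown library varies as the 2 controls do. A model with additive SP1 and SP3 terms, which counts the departure of the double knockdown from their sum as spread, kept 14 of the 62 calls against the controls. They were ATG13, WIPI1, ATG3 and GABARAPL1 (all lower) with SP1 siRNA, ATG101, BECN1, GABARAPL1 and GABARAPL2 (higher) and ATG9A (lower) with SP3 siRNA, and ATG101, BECN1, GABARAP and GABARAPL2 (higher) and WIPI1 (lower) in the double knockdown. The other calls of autophagy genes against the controls were lost in that model. Over all 11728 genes tested, the additive model called 900 with SP1 siRNA, 1805 with SP3 siRNA and 1973 in the double knockdown. The first fit had called 7666, 7225 and 7387. Without control 1 or control 2 the additive model kept 1 call, ATG101 with SP3 siRNA. With no filter on low genes, 29 of the 62 calls were kept. Of all 17125 genes in that fit, 4180, 2106 and 3157 were called with SP1 siRNA, SP3 siRNA and both. Median-ratio scaling over all genes above 0 moved the median of all genes tested by -0.10 with SP1 siRNA and by 0.14 between SP3 and SP1 siRNA. It changed the split of all genes called with SP1 siRNA from 4283 higher and 3383 lower to 3487 and 4206, but turned the direction of none of the 62 calls of autophagy genes. It ended 2 of them, GABARAPL2 with SP1 siRNA (adjusted p = 0.53) and ATG7 with SP3 siRNA (adjusted p = 0.0624).

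Fold changes from each control were also counted, without a test. Of the 28 autophagy genes that averaged at least 5 FPKM over the libraries, ATG12, ATG14, RB1CC1 and WIPI2 were at least 1.5-fold above each control with SP1 siRNA. ATG13, ATG4A, GABARAPL1, PIK3R4 and WIPI1 were as far below each control in that library. This was 9 of 28 genes, where 28.9% of all such genes passed (14.1% above, 14.8% below). With SP3 siRNA, ATG101, ATG12, ATG14, ATG2A, BECN1, GABARAP and WIPI2 were above and ATG9A was below by that fold. These were 8 of 28 genes, where 26.5% of all such genes passed (13.6% above, 12.9% below). In the double knockdown ATG101, ATG12, ATG14, BECN1, GABARAP, GABARAPL2 and WIPI2 were above and WIPI1 was below, 8 of 28, where 27.1% passed (13.7% above, 13.4% below). The 2 controls differed by that fold in 0.196% of genes.

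**Figure D2:**
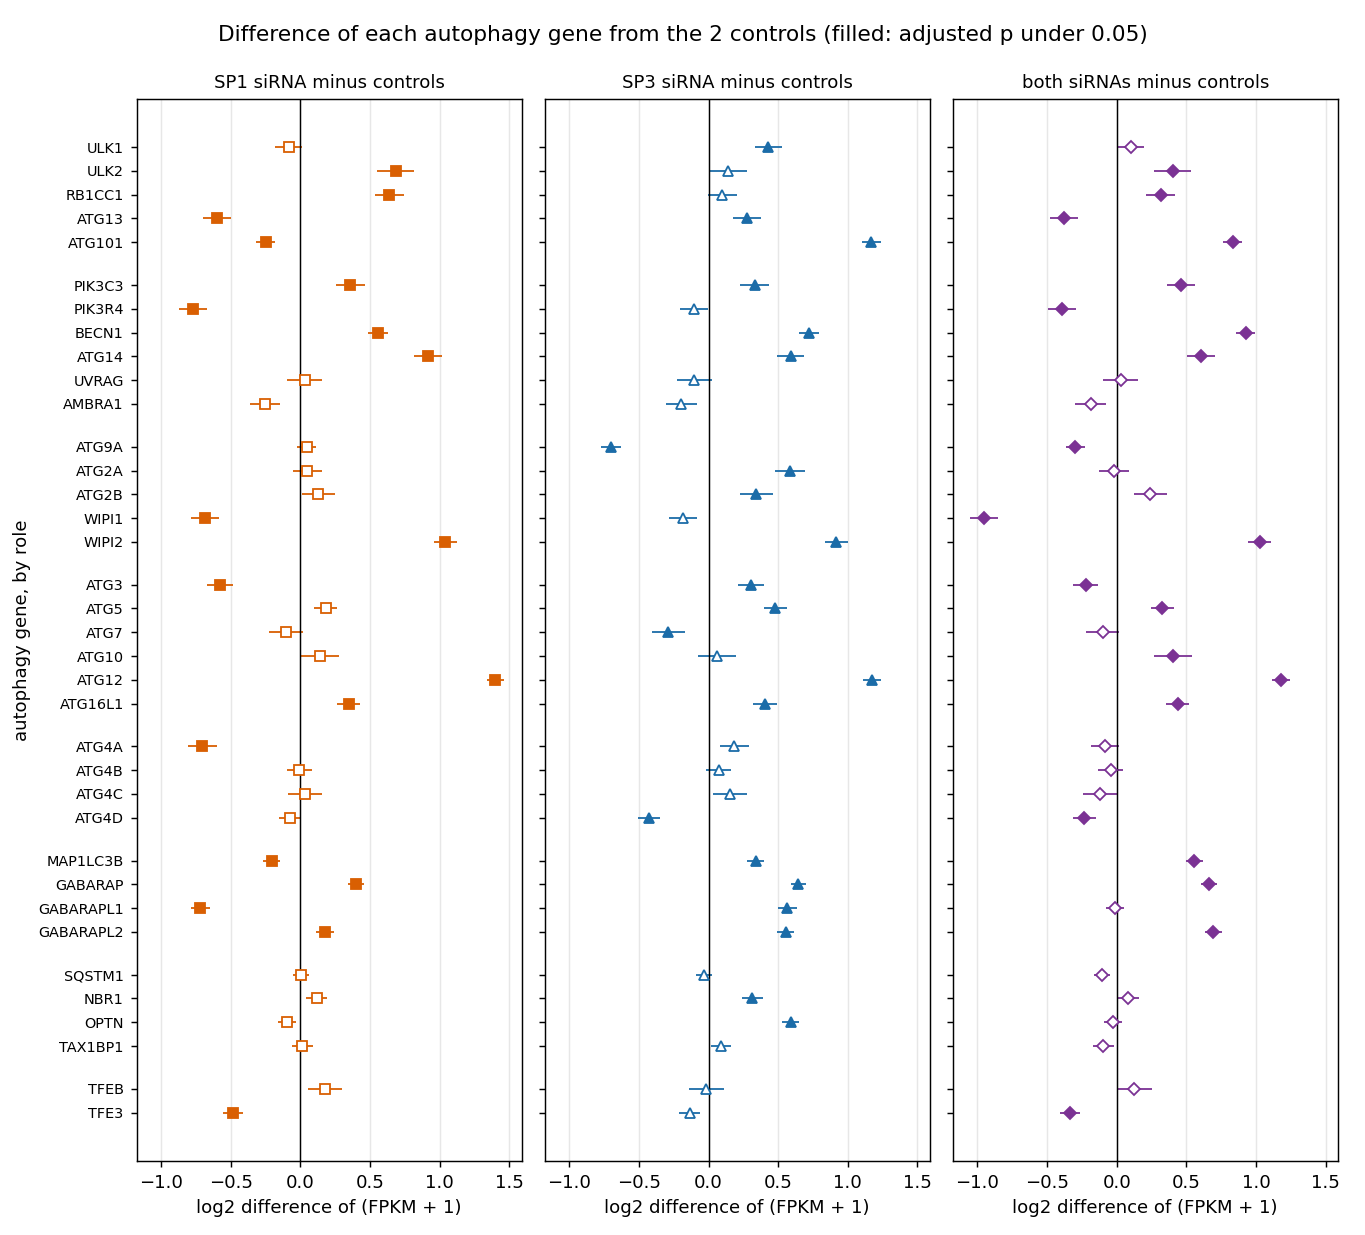
Difference of each autophagy gene from the mean of the 2 controls on the log2(FPKM + 1) axis, in 1 panel for each knockdown library, with bars for the SE from limma and filled symbols for an adjusted p under 0.05. ATG12 and WIPI2 lie near or above 1 in all 3 panels, and GABARAPL1 lies at -0.72 with SP1 siRNA and 0.57 with SP3 siRNA.

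Because SP1 and SP3 bind GC boxes, the promoters of the autophagy genes were searched for the motif GGGCGG on both strands in the 250 bases before the RefSeq start sites (GRCh38.p14). A promoter was matched for 33 of the 36 genes. The motif was in at least 1 window of 24 of the 33 (72.7%), against 76.9% of 9273 tested genes with a promoter. Counted by single window, it was in 30 of 43 windows of the autophagy genes (69.8%). Over all 35116 windows, of genes tested or not, the share was 42.6%. Among the 8 genes that rose in all 3 knockdowns, 5 had the motif (62.5%), against 75.1% of the 1385 tested genes that did so. It was in 4 of the 5 genes that fell with SP1 siRNA and rose with SP3 siRNA (80%). Of 6 matched genes called in no comparison with the controls, 4 had it (66.7%). A match to these letters is a description, not a binding site. The window of ATG12, the gene with the largest rise, held none.

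The windows of ATG101, ATG14, GABARAPL2 and WIPI1 are shown because these genes differed from the controls by at least 0.5 on the log2 scale in 2 or more knockdowns, the most among genes whose windows held at most 30 annotated exonic bases. They are ATG101 (chr12:52069728-52069977, plus strand), ATG14 (chr14:55411831-55412080, minus strand), GABARAPL2 (chr16:75566129-75566378, plus strand) and WIPI1 (chr17:68457497-68457746, minus strand), each written 5′ to 3′ on the strand of its gene and ending at the base before the start site. Capitals mark GGGCGG, or CCGCCC where the motif lies on the other strand.
ATG101: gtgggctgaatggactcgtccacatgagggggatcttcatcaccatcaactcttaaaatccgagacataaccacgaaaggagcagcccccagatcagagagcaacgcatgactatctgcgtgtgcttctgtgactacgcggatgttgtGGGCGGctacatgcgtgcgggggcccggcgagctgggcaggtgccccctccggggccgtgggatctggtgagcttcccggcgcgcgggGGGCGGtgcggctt
ATG14: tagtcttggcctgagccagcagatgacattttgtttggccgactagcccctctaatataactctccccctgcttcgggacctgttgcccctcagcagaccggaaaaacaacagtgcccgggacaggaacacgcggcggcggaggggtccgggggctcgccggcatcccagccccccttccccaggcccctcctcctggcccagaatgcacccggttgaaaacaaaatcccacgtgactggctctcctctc
GABARAPL2: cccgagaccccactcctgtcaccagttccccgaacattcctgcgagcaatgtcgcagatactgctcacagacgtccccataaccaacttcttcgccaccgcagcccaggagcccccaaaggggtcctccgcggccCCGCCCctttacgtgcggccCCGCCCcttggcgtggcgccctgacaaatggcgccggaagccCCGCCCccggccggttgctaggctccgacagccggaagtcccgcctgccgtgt
WIPI1: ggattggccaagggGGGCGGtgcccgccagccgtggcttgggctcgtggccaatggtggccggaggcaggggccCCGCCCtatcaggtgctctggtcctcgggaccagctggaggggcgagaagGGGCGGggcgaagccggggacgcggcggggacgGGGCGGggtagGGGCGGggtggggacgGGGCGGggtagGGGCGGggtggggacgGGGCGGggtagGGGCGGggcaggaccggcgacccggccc
The WIPI1 window had 9 motifs, the GABARAPL2 window 3, the ATG101 window 2 and the ATG14 window 0. WIPI1 was the one of the 4 that was lower in the double knockdown. In all, 7 autophagy genes were lower in it. Of these, ATG13 and PIK3R4 held 0 motifs, ATG3 1, ATG9A 2, TFE3 4 and WIPI1 9, and ATG4D was not matched. ULK1, with 5 motifs, was not called in it. Whether the number of motifs went with the direction of change was not tested.

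In the ULK complex, 2 of 5 genes rose and 2 fell with SP1 siRNA (36.5% and 28.8% of all genes), 3 rose with SP3 siRNA (29.6%), and 3 rose and 1 fell in the double knockdown (31.9% and 31.1%). ATG101, which stabilises ATG13 in the complex, had 26.8 and 26.5 FPKM in the controls, 22.3 with SP1 siRNA, 61.2 with SP3 siRNA and 48.3 in the double knockdown. It was more than doubled with SP3 siRNA, lay a little below both controls with SP1 siRNA and was between the 2 single knockdowns when both siRNAs were given. Its log2 difference was -0.25 ± 0.07 with SP1 siRNA (SE; limma, adjusted p = 0.00496), 1.17 ± 0.07 with SP3 siRNA (adjusted p = 1.9e-09) and 0.83 ± 0.07 in the double knockdown (adjusted p = 6.21e-08). An unnamed locus on the opposite strand overlaps 42.7% of the exonic bases of ATG101 in GENCODE 29, and the sources used here do not say whether the libraries kept the strand.

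ATG13, the adaptor that links the kinase to the rest of the complex, had 6.86 and 6.93 FPKM in the controls, 4.22 with SP1 siRNA, 8.57 with SP3 siRNA and 5.08 in the double knockdown. Both libraries with SP1 siRNA were below the controls and the SP3 siRNA library was above them. ATG13 fell by 0.60 ± 0.10 with SP1 siRNA (limma, adjusted p = 9.28e-05) and rose by 0.28 ± 0.10 with SP3 siRNA (adjusted p = 0.0249). In the double knockdown it fell by 0.38 ± 0.10 (limma, adjusted p = 0.00408). The FPKM ratio of ATG101 to ATG13 was 3.90 and 3.83 in the controls, 5.28 with SP1 siRNA, 7.13 with SP3 siRNA and 9.51 in the double knockdown.

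The kinase ULK1 had 7.97 and 7.36 FPKM in the controls, 7.16 with SP1 siRNA, 10.7 with SP3 siRNA and 8.28 in the double knockdown. Only the SP3 siRNA library was called, 0.43 ± 0.10 higher (limma, adjusted p = 0.00119). Its paralog ULK2 had 1.06 and 1.26 FPKM in the controls, 2.46 with SP1 siRNA, 1.38 with SP3 siRNA and 1.85 in the double knockdown. ULK2 rose by 0.68 ± 0.13 with SP1 siRNA (limma, adjusted p = 0.000322) and by 0.40 ± 0.13 in the double knockdown (adjusted p = 0.0148). RB1CC1, the scaffold also known as FIP200, had 6.53 and 5.61 FPKM in the controls, 9.98 with SP1 siRNA, 6.56 with SP3 siRNA and 7.78 in the double knockdown. It too was highest with SP1 siRNA, where it rose by 0.64 ± 0.11 (limma, adjusted p = 8.12e-05), and it had the widest gap between the controls of all 36 genes.

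In the PI3K complex, BECN1, ATG14 and PIK3C3 rose with each siRNA and in the double knockdown. This was 3 of 6 genes, where 36.5%, 29.6% and 31.9% of all genes rose. Of the 6, 1 fell with SP1 siRNA and in the double knockdown (28.8% and 31.1% of all genes). BECN1, the Beclin 1 scaffold, had 20.4 and 21.0 FPKM in the controls, 31.0 with SP1 siRNA, 34.8 with SP3 siRNA and 40.3 in the double knockdown. All 3 knockdown libraries were above both controls, the double knockdown most. The log2 differences were 0.56 ± 0.07 with SP1 siRNA, 0.72 ± 0.07 with SP3 siRNA and 0.93 ± 0.07 in the double knockdown (limma, adjusted p = 6.62e-06, 4.91e-07 and 3.17e-08). CNTD1, on the opposite strand, overlaps 23.5% of the exonic bases of BECN1 and had at most 0.129 FPKM in any library.

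ATG14, the subunit that directs the complex to autophagosome formation, had 4.73 and 4.63 FPKM in the controls, 9.71 with SP1 siRNA, 7.55 with SP3 siRNA and 7.65 in the double knockdown. It was highest with SP1 siRNA, and the double knockdown lay at the level of SP3 siRNA alone. ATG14 rose by 0.91 ± 0.10 with SP1 siRNA, by 0.59 ± 0.10 with SP3 siRNA and by 0.61 ± 0.10 in the double knockdown (limma, adjusted p = 1.08e-06, 9.95e-05 and 7.37e-05). PIK3C3, the lipid kinase VPS34, rose less, from 4.95 and 4.64 FPKM in the controls to 6.28 to 6.98 FPKM in the knockdowns.

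PIK3R4, the regulatory subunit VPS15, went the other way, with 7.86 and 7.58 FPKM in the controls, 4.10 with SP1 siRNA, 7.11 with SP3 siRNA and 5.65 in the double knockdown. The 2 libraries with SP1 siRNA were below the controls, by 0.77 ± 0.10 and 0.39 ± 0.10 (limma, adjusted p = 7.2e-06 and 0.00321). Both of these calls were lost in the additive model. UVRAG, which takes the place of ATG14 in a second form of the complex, stayed between 1.65 and 1.91 FPKM in the 5 libraries, and AMBRA1, a regulator of Beclin 1, between 3.74 and 4.78 FPKM. Neither passed the test in any comparison with the controls.

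Among the genes of membrane supply, the 2 WIPI genes moved apart. WIPI2, which reads the PI3K lipid and recruits ATG16L1, had 9.26 and 9.84 FPKM in the controls, 20.7 with SP1 siRNA, 18.9 with SP3 siRNA and 20.5 in the double knockdown. It was about equally high in the 3 knockdown libraries, 1.04 ± 0.08, 0.92 ± 0.08 and 1.03 ± 0.08 above the controls (limma, adjusted p = 4.13e-08, 1.82e-07 and 5.06e-08). WIPI1, its paralog, had 8.93 and 9.70 FPKM in the controls, 5.40 with SP1 siRNA, 8.09 with SP3 siRNA and 4.33 in the double knockdown. Both libraries with SP1 siRNA were low, by 0.69 ± 0.10 and 0.95 ± 0.10 (limma, adjusted p = 2.38e-05 and 8.59e-07). The FPKM ratio of WIPI2 to WIPI1 was therefore 1.04 and 1.01 in the controls, 3.82 with SP1 siRNA, 2.34 with SP3 siRNA and 4.74 in the double knockdown. ARSG, on the opposite strand, overlaps 28.5% of the exonic bases of WIPI1 and had 0.734 to 2.91 FPKM, highest in the double knockdown, where WIPI1 was lowest.

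ATG9A, the membrane protein of the vesicles that seed the autophagosome, had 38.7 and 39.6 FPKM in the controls, 40.4 with SP1 siRNA, 23.7 with SP3 siRNA and 31.6 in the double knockdown. It was low in the 2 libraries that received SP3 siRNA, by 0.70 ± 0.07 and 0.30 ± 0.07 (limma, adjusted p = 4.55e-07 and 0.00152). The lipid transfer protein ATG2A had 4.86 and 5.38 FPKM in the controls, 5.33 with SP1 siRNA, 8.18 with SP3 siRNA and 5.03 in the double knockdown. It was high in the SP3 siRNA library alone among the 5, by 0.59 ± 0.11 (limma, adjusted p = 0.000197). ATG2B, its paralog, had 2.28 to 3.19 FPKM and was called with SP3 siRNA, 0.34 ± 0.12 higher (limma, adjusted p = 0.0202).

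In the conjugation systems, ATG12, the ubiquitin-like protein that is joined to ATG5, had the largest rise of the 36 genes. It had 43.3 and 41.5 FPKM in the controls, 113 with SP1 siRNA, 97.05 with SP3 siRNA and 97.4 in the double knockdown. All 3 knockdown libraries were at more than 2-fold of both controls, and the double knockdown lay at the level of SP3 siRNA alone. The log2 differences were 1.40 ± 0.06, 1.18 ± 0.06 and 1.18 ± 0.06 (limma, adjusted p = 9.72e-11, 7.14e-10 and 6.22e-10). AP3S1, a subunit of the AP-3 vesicle coat that lies head to head with ATG12 on the opposite strand, overlaps 8.72% of its exonic bases in GENCODE 29. AP3S1, looked at after the values of ATG12 were seen, had 41.3 and 39.3 FPKM in the controls, 95.6 with SP1 siRNA, 86.7 with SP3 siRNA and 90.97 in the double knockdown. Without strand, reads in the shared stretch cannot be told apart, and what part they had in either gene was not tested.

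The partners of ATG12 rose less. ATG5 had 12.6 and 13.2 FPKM in the controls, 14.8 with SP1 siRNA, 18.4 with SP3 siRNA and 16.5 in the double knockdown. It rose by 0.48 ± 0.08 with SP3 siRNA and by 0.33 ± 0.08 in the double knockdown (limma, adjusted p = 0.000122 and 0.00268). ATG16L1, which binds the ATG12 and ATG5 conjugate, had 13.1 and 12.2 FPKM in the controls, 16.4 with SP1 siRNA, 17.1 with SP3 siRNA and 17.5 in the double knockdown, and rose by 0.35 to 0.44 (limma, adjusted p from 0.000287 to 0.00192). The FPKM ratio of ATG12 to ATG5 went from 3.43 and 3.14 in the controls to 7.66, 5.27 and 5.91 in the SP1 siRNA, SP3 siRNA and double knockdown libraries.

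ATG3, the E2-like enzyme that attaches LC3 and GABARAP proteins to lipid, had 11.04 and 12.2 FPKM in the controls, 7.45 with SP1 siRNA, 14.6 with SP3 siRNA and 9.80 in the double knockdown. It was below both controls in the 2 libraries with SP1 siRNA and above both with SP3 siRNA alone. ATG3 fell by 0.58 ± 0.09 with SP1 siRNA (limma, adjusted p = 5.88e-05) and by 0.22 ± 0.09 in the double knockdown (adjusted p = 0.0465), and rose by 0.31 ± 0.09 with SP3 siRNA (adjusted p = 0.0093). The call in the double knockdown was also lost without the trend on mean level (limma, adjusted p = 0.0831).

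ATG7, the E1-like enzyme that both reactions use, had 2.77 and 2.99 FPKM in the controls, 2.60 with SP1 siRNA, 2.17 with SP3 siRNA and 2.61 in the double knockdown. It was called only with SP3 siRNA, 0.29 ± 0.12 lower (limma, adjusted p = 0.0483), and VGLL4 on the opposite strand overlaps 32.2% of its exonic bases. VGLL4 had 15.1 to 24.5 FPKM, lowest with SP3 siRNA and highest with SP1 siRNA. ATG10, the E2-like enzyme for ATG12, had 0.685 and 0.612 FPKM in the controls, 0.815 with SP1 siRNA, 0.720 with SP3 siRNA and 1.18 in the double knockdown. It rose by 0.40 ± 0.14 in the double knockdown (limma, adjusted p = 0.0189), on a scale that understates changes at such low levels.

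The ATG4 proteases, which trim LC3 and GABARAP proteins before conjugation and release them afterwards, were mostly not called. Of the 4, 1 fell in each comparison with the controls and none rose. Over all genes, 28.8%, 32.1% and 31.1% fell with SP1 siRNA, SP3 siRNA and both, and 36.5%, 29.6% and 31.9% rose. ATG4A had 5.995 and 5.996 FPKM in the controls, 3.30 with SP1 siRNA, 6.96 with SP3 siRNA and 5.60 in the double knockdown. It was low with SP1 siRNA alone, by 0.70 ± 0.10 (limma, adjusted p = 2.53e-05). ATG4D fell from 17.4 and 17.8 FPKM in the controls to 12.8 with SP3 siRNA and 14.8 in the double knockdown, by 0.43 ± 0.08 and 0.23 ± 0.08 (limma, adjusted p = 0.000291 and 0.0201). The second of these was lost without the trend (limma, adjusted p = 0.0535), and KRI1 on the opposite strand overlaps 17.5% of the exonic bases of ATG4D. KRI1 had 12.3 and 14.2 FPKM in the controls, 9.13 with SP1 siRNA, 6.57 with SP3 siRNA and 5.88 in the double knockdown. What part its reads had in the values of ATG4D was not tested. ATG4B stayed between 10.1 and 11.02 FPKM and ATG4C between 1.85 and 2.44 FPKM, with no call.

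The 4 LC3 and GABARAP genes of the set all rose with SP3 siRNA (29.6% of all genes), and with SP1 siRNA 2 rose and 2 fell (36.5% and 28.8% of all genes). The additive model kept GABARAPL1 and GABARAPL2 of the 4 rises with SP3 siRNA, and the SP1 siRNA calls of MAP1LC3B and GABARAPL2 were also lost without the trend on mean level. Their summed level was 374 and 379.9 FPKM in the controls, 401 with SP1 siRNA, 548 with SP3 siRNA and 560.1 in the double knockdown. The sum was high in both libraries with SP3 siRNA and near the controls with SP1 siRNA. GABARAP and MAP1LC3B gave most of it in each library.

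MAP1LC3B, the LC3 protein most used as an autophagosome marker, had 106 and 112 FPKM in the controls, 93.9 with SP1 siRNA, 138 with SP3 siRNA and 160.2 in the double knockdown. It was highest when both siRNAs were given, 0.56 ± 0.06 above the controls (limma, adjusted p = 1.25e-06), and 0.34 ± 0.06 above them with SP3 siRNA (adjusted p = 0.000176). The fall of 0.21 ± 0.06 with SP1 siRNA (limma, adjusted p = 0.00715) was lost without the trend (adjusted p = 0.0808) and was 0.03 in size in the additive model. GABARAP had 157 and 151 FPKM in the controls, 203 with SP1 siRNA, 241 with SP3 siRNA and 245 in the double knockdown. All 3 knockdown libraries were above both controls, by 0.40 ± 0.06, 0.65 ± 0.06 and 0.66 ± 0.06 (limma, adjusted p = 1.88e-05, 1.31e-07 and 8.7e-08).

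GABARAPL1 moved in opposite directions with the 2 siRNAs. It had 46.9 and 48.8 FPKM in the controls, 28.7 with SP1 siRNA, 71.3 with SP3 siRNA and 47.5 in the double knockdown, which lay between the 2 controls. GABARAPL1 fell by 0.72 ± 0.07 with SP1 siRNA and rose by 0.57 ± 0.07 with SP3 siRNA (limma, adjusted p = 2.01e-07 and 2.9e-06). Its share of the summed level of the LC3 and GABARAP genes in the set was 12.5% and 12.9% in the controls, 7.16% with SP1 siRNA, 13.01% with SP3 siRNA and 8.48% in the double knockdown. GABARAPL2, known as GATE-16, had 64.5 and 67.9 FPKM in the controls, 74.9 with SP1 siRNA, 97.6 with SP3 siRNA and 108 in the double knockdown. It rose by 0.55 ± 0.06 with SP3 siRNA and by 0.69 ± 0.06 in the double knockdown (limma, adjusted p = 1.99e-06 and 1.63e-07). Its rise of 0.18 ± 0.06 with SP1 siRNA (limma, adjusted p = 0.0226) was also lost without the trend (adjusted p = 0.126). MAP1LC3B and GABARAPL1 have near-identical copies elsewhere in the genome (MAP1LC3B2 and GABARAPL3), so that their reads may be split or shared.

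**Figure D3:**
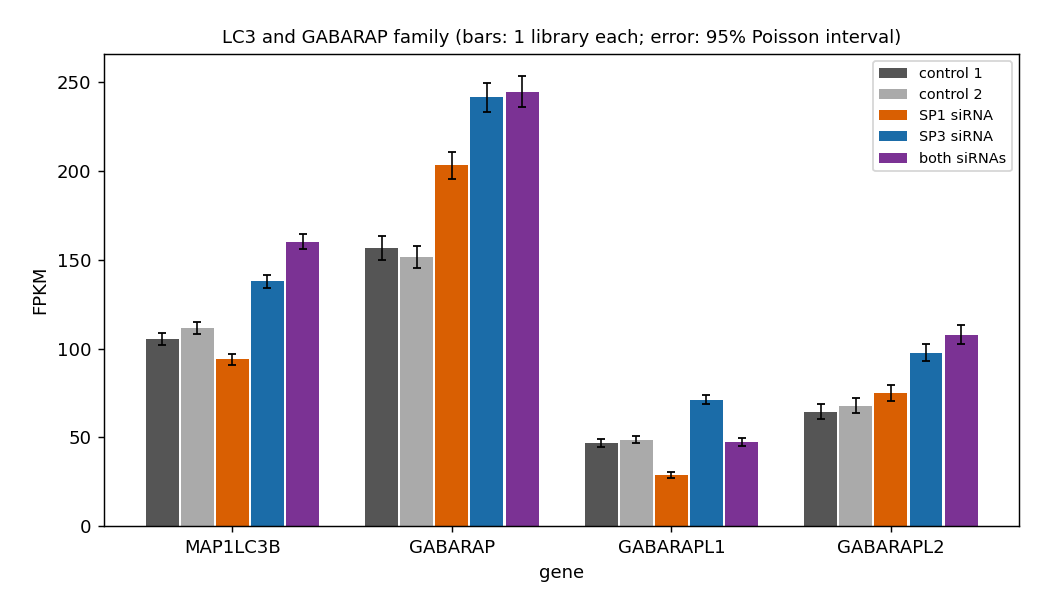
Level of the 4 LC3 and GABARAP genes in FPKM on an axis from 0, with 1 bar per library and error bars for the 95% Poisson interval of the recovered reads, which covers counting error alone. GABARAPL1 is lowest with SP1 siRNA (28.7 FPKM) and highest with SP3 siRNA (71.3 FPKM), whereas GABARAP is above both controls in all 3 knockdown libraries.

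Of the 4 cargo receptors, 2 rose with SP3 siRNA (29.6% of all genes). With SP1 siRNA and in the double knockdown limma called 0 of 4, where 65.4% and 63% of all genes were called. In these 2 comparisons 0 of 4 had an unadjusted p under 0.05. SQSTM1 had 175 and 172 FPKM in the controls, 174 with SP1 siRNA, 169 with SP3 siRNA and 161 in the double knockdown. MRNIP on the opposite strand overlaps 39.8% of the exonic bases of SQSTM1 and had 11.9 to 24.6 FPKM. OPTN, the receptor optineurin, had 54.1 and 56.2 FPKM in the controls, 51.5 with SP1 siRNA, 83.5 with SP3 siRNA and 54.2 in the double knockdown. Only its SP3 siRNA library stood above the rest, by 0.59 ± 0.06 (limma, adjusted p = 1.34e-06). NBR1 rose to 33.1 FPKM with SP3 siRNA from 27.3 and 25.6 in the controls, and TAX1BP1 stayed between 26.3 and 30.01 FPKM.

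TFEB and TFE3 are related transcription factors that turn on lysosomal and autophagy genes. TFEB had 1.85 and 1.84 FPKM in the controls, 2.21 with SP1 siRNA, 1.82 with SP3 siRNA and 2.11 in the double knockdown, and was not called. TFE3 was the more abundant, with 25.6 and 25.1 FPKM in the controls, 17.9 with SP1 siRNA, 23.0 with SP3 siRNA and 19.9 in the double knockdown. It fell in the 2 libraries with SP1 siRNA, by 0.48 ± 0.07 and 0.33 ± 0.07 (limma, adjusted p = 4.19e-05 and 0.00114).

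Across the 3 comparisons with the controls, which share the same 2 control libraries, 8 of the 36 genes rose in each: PIK3C3, BECN1, ATG14, WIPI2, ATG12, ATG16L1, GABARAP and GABARAPL2. This was 22.2% of the genes, against 14.9% of all genes tested. In the additive model it was 0 genes (0.136% of all genes). With either scaling or without the trend it was 7, as GABARAPL2 dropped out (13.6% to 13.8% of all genes). With no filter it was 4 genes (ATG12, BECN1, GABARAP and WIPI2), against 2.71% of all genes. By limma, 0 genes fell in all 3, also at an unadjusted p under 0.05, against 13.9% of all genes. The 7 genes called in none were UVRAG, AMBRA1, ATG4B, ATG4C, SQSTM1, TAX1BP1 and TFEB (19.4%, against 11.5%). Another 5 genes fell with SP1 siRNA and rose with SP3 siRNA: ATG13, ATG101, ATG3, MAP1LC3B and GABARAPL1 (13.9%, against 5.28%). In the additive model GABARAPL1 alone kept both calls, against 0.759% of all genes, and leaving out either control from that model left 0 genes. With no filter ATG101 and GABARAPL1 kept both calls (0.59% of all genes), and without the trend MAP1LC3B dropped out (4.17% of all genes). The reverse was seen for 0 genes, also at an unadjusted p under 0.05, against 6.05% of all genes. A called difference of at least 0.5 on the log2 scale was seen in at least 1 comparison for 19 of the 36 genes (52.8%, against 57.5% of all genes) and in all 3 for BECN1, ATG14, WIPI2 and ATG12 (11.1%, against 11.7%), both near the background.

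The 2 single knockdown libraries were then compared directly. Of the 36 genes, 15 were higher with SP3 siRNA than with SP1 siRNA and 6 were lower, where 62.7% of all genes were called (26.5% higher, 36.2% lower). The median difference was 0.14, against -0.09 over all genes tested. Under median-ratio scaling over all genes above 0 these medians were 0.28 and 0.04, and the split of all genes called turned from 3103 higher and 4250 lower to 4100 and 3249. Among genes that averaged at least 5 FPKM, without scaling, the medians were 0.27 for 28 autophagy genes and 0.008 for all. Of all such genes, 2543 were higher and 2409 lower. ATG101 and GABARAPL1 differed most, by 1.42 ± 0.08 and 1.29 ± 0.08 (limma, adjusted p = 1.36e-09 and 2.59e-09). ATG4A, ATG3 and ATG13 were higher by 0.89 ± 0.12, 0.88 ± 0.11 and 0.88 ± 0.12 (limma, adjusted p = 1.21e-05, 4.24e-06 and 1.06e-05). For the 5 genes that fell with SP1 siRNA and rose with SP3 siRNA, the direction is set by how they were grouped, and MAP1LC3B, one of them, was higher by 0.55 ± 0.07. ATG101, GABARAPL1, ATG13 and ATG3 were the 4 calls that the additive model kept, where it called 1278 of all 11728 genes. The lower genes were ATG9A, by 0.75 ± 0.08 (limma, adjusted p = 1.22e-06), ULK2 and RB1CC1, each by 0.54, ATG4D, ATG14 and ATG12. The last 3 were lost under median-ratio scaling over all genes above 0 (limma, adjusted p = 0.0838, 0.175 and 0.573). Without the trend, ATG12 and GABARAP were lost (limma, adjusted p = 0.0968 and 0.0693).

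**Figure D4:**
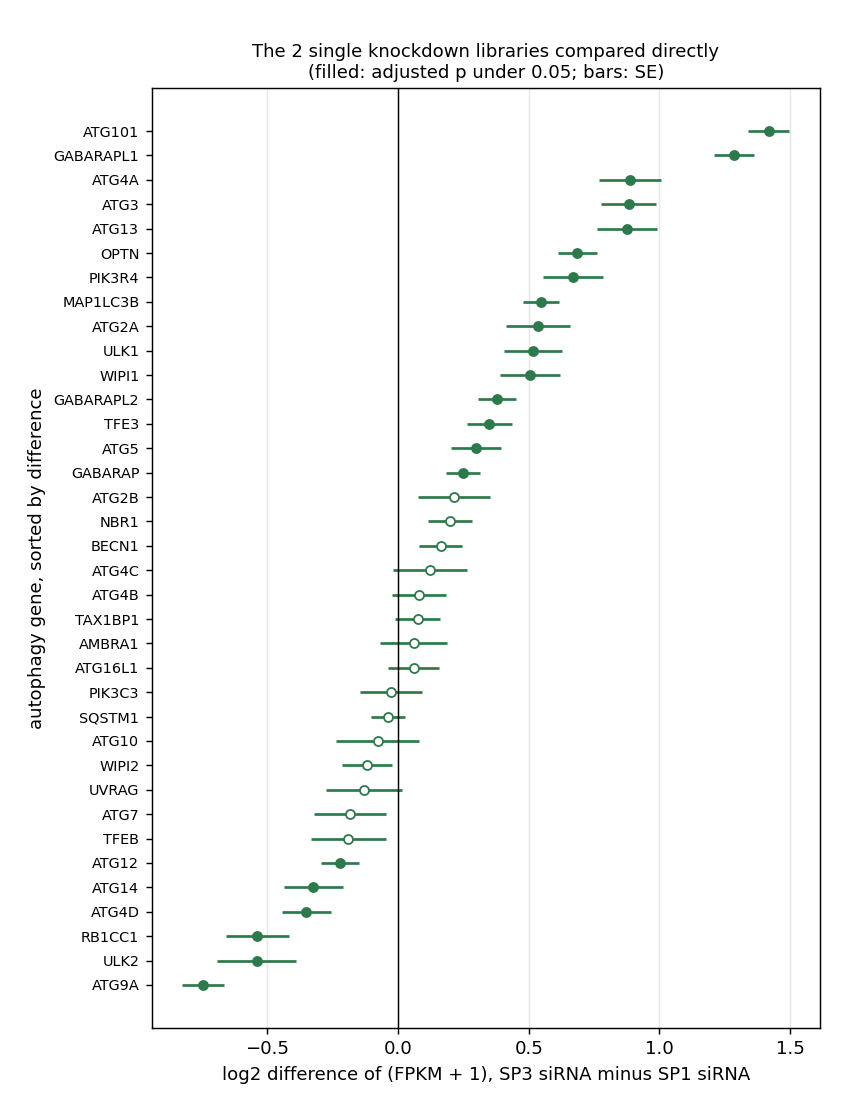
Difference between the SP3 siRNA and SP1 siRNA libraries for each autophagy gene on the log2(FPKM + 1) axis, sorted by size, with bars for the SE from limma and filled points for an adjusted p under 0.05. ATG101 (1.42) and GABARAPL1 (1.29) stand apart at the top and ATG9A (-0.75) at the bottom.

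Against SP1 siRNA alone, the double knockdown had 9 of 36 genes higher and 4 lower, where 47.5% of all genes were called (21% higher, 26.4% lower). With no filter on low genes, 0 of these calls passed, as did 0 of all 17125 genes in that fit. The 4 LC3 and GABARAP genes were among those higher in it, MAP1LC3B by 0.76 ± 0.07, GABARAPL1 by 0.71 ± 0.08, GABARAPL2 by 0.52 ± 0.07 and GABARAP by 0.27 ± 0.07 (limma, adjusted p from 6.52e-07 to 0.00355). GABARAP was lost without the trend (limma, adjusted p = 0.071), and GABARAP and MAP1LC3B also in the additive model. ATG101 was higher by 1.08 ± 0.08 (limma, adjusted p = 7.27e-08). The 4 lower genes were RB1CC1, ATG14, ATG9A and ATG12. RB1CC1, ATG14 and ATG12 were lost under median-ratio scaling over all genes above 0 (limma, adjusted p = 0.1004, 0.107 and 0.246), and RB1CC1 and ATG12 also without the trend (adjusted p = 0.0736 and 0.126). In the additive model this comparison is by construction the same term as SP3 siRNA against the controls. The values of ATG12 (-0.22) and ATG14 (-0.31) were 0.58 and 0.20 there, so their turn is no separate check.

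Against SP3 siRNA alone, the double knockdown had 2 of 36 genes higher and 9 lower, where 33% of all genes were called (17.9% higher, 15.1% lower). With no filter, 0 of these calls passed, as did 0 of all 17125 genes in that fit. WIPI1 was lower by 0.77 ± 0.12, ATG13 by 0.66 ± 0.12, OPTN by 0.61 ± 0.07, ATG2A by 0.61 ± 0.12, GABARAPL1 by 0.58 ± 0.08 and ATG3 by 0.53 ± 0.11 (limma, adjusted p from 2.43e-05 to 0.00156). ULK1, ATG101 and NBR1 were lower by 0.33, 0.33 and 0.23, of which ULK1 and NBR1 were lost without the trend (limma, adjusted p = 0.0625 and 0.146). The 2 higher genes were ATG9A, by 0.40 ± 0.08, and MAP1LC3B, by 0.22 ± 0.07 (limma, adjusted p = 0.00136 and 0.0271). MAP1LC3B was lost under median-ratio scaling over all genes above 0 (limma, adjusted p = 0.211) and without the trend (adjusted p = 0.164). It was at -0.03 in the additive model, where this comparison is by construction the same term as SP1 siRNA against the controls.

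The interaction asks whether the double knockdown differs from the sum of the single differences. A difference from the controls that every knockdown library shares also gives such a departure. It cannot be told apart here from an effect of one siRNA on the other. Of the 36 genes, 14 were called, 4 above and 10 below the sum, where 39.5% of all genes were called (18.5% above, 21% below), so that the share called was near the background. Without the trend 7 of the 14 passed, and with no filter 0. Over all genes, 3882 of 11728 passed without the trend and 0 of 17125 with no filter. ATG12, WIPI2 and ATG14 were farthest below the sum, by 1.39 ± 0.10, 0.93 ± 0.13 and 0.90 ± 0.15 (limma, adjusted p = 8.11e-08, 4.61e-05 and 0.000286). Each of them rose with either siRNA alone and was no higher with both than with the stronger single siRNA. MAP1LC3B and PIK3R4 were above the sum, by 0.42 ± 0.09 and 0.49 ± 0.15 (limma, adjusted p = 0.00217 and 0.0195), and MAP1LC3B was lost without the trend (adjusted p = 0.0534). GABARAPL1, for which the single differences of -0.72 and 0.57 nearly cancel, was not called.

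**Figure D5:**
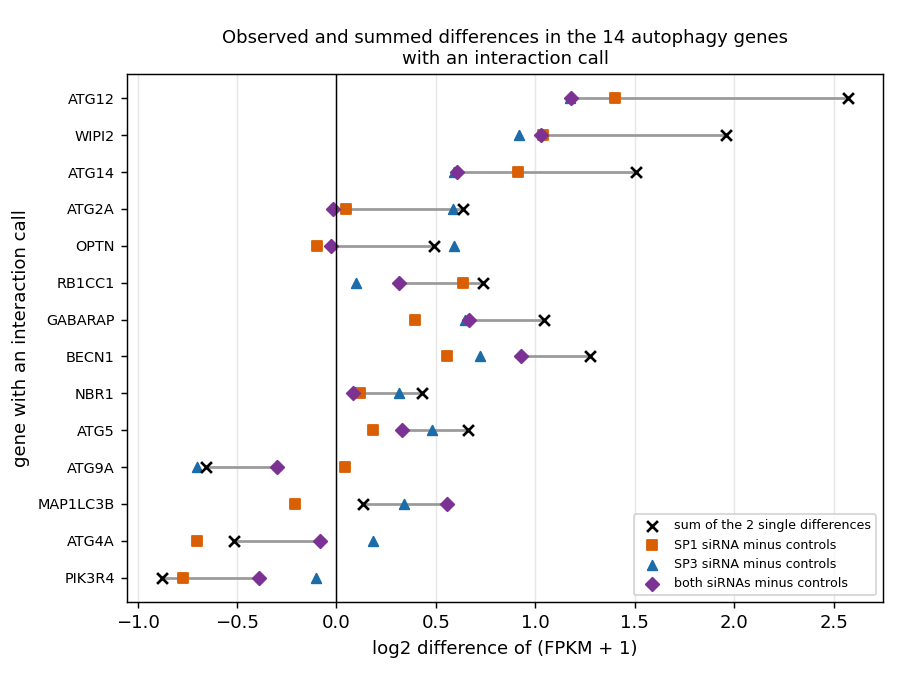
The 14 autophagy genes with an interaction call, with the difference of each knockdown library from the controls and the sum of the 2 single differences (cross) on the log2(FPKM + 1) axis. A line joins the sum to the double knockdown, longest for ATG12 at 1.39.

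Other genes of the pathway, from lists chosen by function with earlier results of these data known, were counted in the same fit. These 105 tested genes had 192 calls against the controls, of which the additive model kept 37. Of all 11728 genes, that model called 900, 1805 and 1973 with SP1 siRNA, SP3 siRNA and both. Of all genes tested, 36.5% rose and 28.8% fell with SP1 siRNA, 29.6% and 32.1% with SP3 siRNA, and 31.9% and 31.1% in the double knockdown, and several list shares below are near these. Of 15 tested genes of the remaining autophagosome machinery, 6 rose and 6 fell with SP1 siRNA (40% and 40%), 7 rose and 1 fell with SP3 siRNA (46.7% and 6.67%), and 5 rose and 2 fell in the double knockdown (33.3% and 13.3%). The kinase ULK3 had 11.5 and 11.7 FPKM in the controls, 13.9 with SP1 siRNA, 21.9 with SP3 siRNA and 24.6 in the double knockdown, so that the 2 libraries with SP3 siRNA were highest. VMP1, a membrane protein needed for autophagosome formation, had 44.7 and 42.4 FPKM in the controls, 89.1 with SP1 siRNA, 40.5 with SP3 siRNA and 51.7 in the double knockdown. ATG9B, the paralog of ATG9A, had 2.02 and 2.08 FPKM in the controls and 5.15 with SP3 siRNA, the library in which ATG9A was lowest.

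Of 14 genes of autophagosome to lysosome fusion, 7 fell and 1 rose with SP1 siRNA (50% and 7.14%), 6 rose and 1 fell with SP3 siRNA (42.9% and 7.14%), and 3 rose and 4 fell in the double knockdown (21.4% and 28.6%). In the direct comparison 9 of the 14 were higher with SP3 siRNA, where 26.5% of all genes were higher and 36.2% lower, a split that turned under median-ratio scaling. YKT6, a SNARE protein of fusion, had 34.6 and 37.0 FPKM in the controls, 12.2 with SP1 siRNA, 52.7 with SP3 siRNA and 28.3 in the double knockdown. It fell by 1.48 ± 0.07 with SP1 siRNA and rose by 0.55 ± 0.07 with SP3 siRNA (limma, adjusted p = 2.72e-10 and 1.18e-05), and both calls were kept in the additive model (adjusted p = 0.041 and 0.038). The SNARE gene VAMP8 was also lower with SP1 siRNA (33.0 FPKM) and higher with SP3 siRNA (61.2 FPKM) than the controls (43.8 and 41.8 FPKM). In the additive model its SP1 siRNA call was lost and its SP3 siRNA call kept (limma, adjusted p = 0.166 and 0.0321). The tethering factor EPG5 fell from 7.59 and 7.57 FPKM in the controls to 3.55 with SP1 siRNA.

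Of 31 tested genes of mTORC1, AMPK and nutrient sensing, which restrain or start autophagy, 13 rose and 10 fell with SP1 siRNA (41.9% and 32.3%), 10 rose and 6 fell with SP3 siRNA (32.3% and 19.4%), and 13 rose and 10 fell in the double knockdown (41.9% and 32.3%). MTOR, the kinase that holds the ULK complex inactive in fed cells, had 9.24 and 9.57 FPKM in the controls, 2.38 with SP1 siRNA, 10.6 with SP3 siRNA and 3.92 in the double knockdown. It was low in the 2 libraries with SP1 siRNA, by 1.62 ± 0.10 and 1.08 ± 0.10 (limma, adjusted p = 2.65e-09 and 2.22e-07; 0.0368 and 0.028 in the additive model). PRKAB2, an AMPK subunit, fell in the same libraries, from 18.9 and 18.4 FPKM in the controls to 10.3 and 11.9. LAMTOR1, which anchors mTORC1 regulators to the lysosome, rose from 24.0 and 20.4 FPKM in the controls to 39.1 with SP1 siRNA, 37.7 with SP3 siRNA and 45.6 in the double knockdown.

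Of 17 tested receptors for organelles and further cargo, 6 rose in each knockdown (35.3%), and 3, 5 and 5 fell with SP1 siRNA, with SP3 siRNA and with both (17.6%, 29.4% and 29.4%). BCL2L13, a mitophagy receptor, had 4.73 and 4.35 FPKM in the controls, 15.04 with SP1 siRNA, 11.3 with SP3 siRNA and 13.6 in the double knockdown. The mitophagy receptor BNIP3 went down, with 150.3 and 146 FPKM in the controls, 114 with SP1 siRNA, 46.6 with SP3 siRNA and 80.6 in the double knockdown. Its fall with SP1 siRNA, by 0.38 ± 0.06, turned to 0.12 in the additive model. NCOA4, the ferritin receptor, fell from 34.1 and 35.1 FPKM in the controls to 22.3 in each of the 2 libraries with SP1 siRNA.

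Of 20 lysosomal genes known as TFEB targets, 7 rose and 6 fell with SP1 siRNA (35% and 30%), 6 rose and 8 fell with SP3 siRNA (30% and 40%), and 4 rose and 6 fell in the double knockdown (20% and 30%). LAMP1, the lysosomal membrane glycoprotein, had 89.9 and 97.3 FPKM in the controls, 43.6 with SP1 siRNA, 80.3 with SP3 siRNA and 65.0 in the double knockdown. Its fall with SP3 siRNA, by 0.22 ± 0.07, turned to 0.12 in the additive model. NEU1, a sialidase, had 65.8 and 70.0 FPKM in the controls, 37.3 with SP1 siRNA, 27.97 with SP3 siRNA and 47.0 in the double knockdown. ATP6V0D1, a proton pump subunit, rose in all 3 libraries, to 20.3, 26.6 and 32.7 FPKM from 12.5 and 13.3 in the controls. Of 10 tested regulators of autophagy transcription other than TFEB and TFE3, 3 rose and 2 fell with SP1 siRNA (30% and 20%), 4 rose and 3 fell with SP3 siRNA (40% and 30%), and 3 rose and 2 fell in the double knockdown (30% and 20%). ATF4, the stress response factor, rose from 27.2 and 29.7 FPKM in the controls to 46.3 with SP1 siRNA, 35.0 with SP3 siRNA and 44.1 in the double knockdown.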

How the data were processed

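RNA sequencing of 5 HCT116 libraries was deposited as 1 table per library of gene symbols and FPKM values. The authors used HISAT2 2.0.5, HTSeq 0.9.1, Cufflinks 2.2.1 and Trimmomatic 0.36, per the submitters' processing notes, which state no roles. The sources used here do not give the genome build, annotation, strand or filters.

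The deposited values are FPKM and not counts, so log2(FPKM + 1) was tested with limma 3.58.1 in R 4.3.3, using empirical Bayes moderation with a trend on mean level. Genes that reached 1 FPKM in any library were tested. Differences on this scale understate the change of low genes. The model had 1 mean per group, 1 residual degree of freedom from the 2 controls and 13.98 prior degrees of freedom. P-values were adjusted by Benjamini-Hochberg over 11728 genes, separately in each of 7 comparisons and not across them. The fit was first run on simulated data in which every library had the same spread. That run could not test whether the knockdown libraries vary as the controls do. Beside the fit stood a count without a test (mean of at least 5 FPKM, 1.5-fold from each control). Alternatives were another pseudocount (0.1), other filters, median-ratio scaling, no trend, an additive model and leaving out each control. Scaling on tested genes only was added after the effect of scaling over all genes above 0 had been seen.

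Whole reads were recovered from the steps of the deposited FPKM values for 17108 of 17125 genes above 0 (tolerance 0.02 reads), with depth set by 88 genes of 1 transcript. As a control, values were jittered by an SD of 1%. Of 500 genes so treated, 61 (12.2%) still gave whole reads. That check was followed by one on the autophagy genes alone, in which 1 of 720 draws (0.139%) did. The reads are lower limits and served only for depth and 95% Poisson intervals, which cover counting error alone.

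Promoters came from RefSeq (GRCh38.p14), and gene overlaps from GENCODE 29, which may not be the authors' annotation. The rule for printed windows (at most 30 annotated exonic bases, most upstream window) was set after windows had been seen. It left out ATG12, WIPI2, BECN1 and GABARAPL1, whose differences were larger than that of GABARAPL2. GABARAP, with the smallest difference of the 9 eligible genes, was also not shown. The members and gene lists were chosen with earlier results of these data known. All members are named. Library values are printed for those past 0.5 log2 in a comparison with the controls, for the LC3, conjugation and ULK groups and for TFEB and TFE3, and up to 3 genes by smallest p were eligible from each other list.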

Additional observations from a re-analysis of the deposited data

Results flagged for a closer look

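For 14 of the 36 genes the double knockdown differed from the sum of the single differences, by limma's test of the interaction on the log2(FPKM + 1) scale at an adjusted p under 0.05. A difference from the controls that every knockdown library shares gives such a value too. It cannot be told apart from a change in the effect of one siRNA when the other is present. Over all genes tested the same test called 39.5%, so the share is near the background. Negative values mean that the double knockdown was below the sum of the single differences. In the ULK complex this was RB1CC1 (-0.42), the scaffold that rose with SP1 siRNA. In the PI3K complex it was BECN1 (-0.35) and ATG14 (-0.90), which rose with either siRNA, and PIK3R4 (0.49), which fell with SP1 siRNA. Among the genes of membrane supply it was ATG9A (0.36), ATG2A (-0.65) and WIPI2 (-0.93). In the conjugation systems it was ATG5 (-0.33) and ATG12 (-1.39), and among the proteases ATG4A (0.43). In the LC3 and GABARAP family it was MAP1LC3B (0.42) and GABARAP (-0.38). Among the cargo receptors it was NBR1 (-0.35) and OPTN (-0.52).

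Each value rests on 1 library per knockdown. Under median-ratio scaling, RB1CC1 and ATG5 no longer passed (limma, adjusted p = 0.0558 and 0.0823 with scaling over all genes above 0). Without the trend on mean level, 7 of the 14 no longer passed: RB1CC1, BECN1, ATG9A, ATG5, MAP1LC3B, GABARAP and NBR1 (limma, adjusted p = 0.0873, 0.0816, 0.0772, 0.0976, 0.0534, 0.0684 and 0.096). With no filter on low genes, 0 of the 14 passed. Over all genes, 3882 of 11728 passed without the trend and 0 of 17125 with no filter.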

How the results depend on the processing

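No paired analysis was possible because the groups share fewer than 2 replicate numbers. Depth limits the scarcest genes, such as ATG10 with 77 to 137 reads, and no knockdown has a second library. Counts of autophagy genes called are given in the order SP1 siRNA, SP3 siRNA and double knockdown against the controls, SP3 against SP1 siRNA, and the double knockdown against SP1 and against SP3 siRNA. They were 19, 22, 21, 21, 13 and 11. With no filter they were 11, 8, 10, 6, 0 and 0, and 0 for the interaction. Over all 17125 genes in that fit they were 4180, 2106, 3157, 2636, 0 and 0, and 0 for the interaction. In the additive model they were 4, 5, 5, 4, 5 and 4, where the departure from additivity is counted as spread by construction. Over all 11728 genes that model called 900, 1805, 1973, 1278, 1805 and 900. In it the double knockdown against SP1 siRNA is the same term as SP3 siRNA against the controls. Against SP3 siRNA it is the same term as SP1 siRNA against the controls, so these counts repeat. In the additive model without 1 control, each control gave 0, 1, 0, 2, 1 and 0. Without either control, the model with 1 mean per group gave values with no test. Without the trend, the interaction had 7 calls instead of 14, and 3882 instead of 4630 over all genes tested. Other counts, under pseudocount 0.1, the filter at a mean of 5 FPKM, either scaling or no trend, lay within 1.5 times the first ones. At 2-fold instead of 1.5-fold, the count without a test was 3, 2 and 3 genes instead of 9, 8 and 8.

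Of 62 calls against the controls, those kept with the same direction were 62 with pseudocount 0.1, 60 with either scaling, 58 without the trend, 29 with no filter and 14 in the additive model. Only called genes were followed in this way, a choice made after many small uncalled values had been seen to change sign. The median difference of the 36 genes with SP1 siRNA turned from 0.03 to -0.063 with scaling over all genes above 0, -0.023 with scaling on tested genes, -0.0029 in the additive model and -0.0078 in that model without control 1. The median of the double knockdown against SP3 siRNA turned from -0.03 to 0.021 in the additive model without control 2. MAP1LC3B with SP1 siRNA turned from -0.21 to 0.024 in the latter fit. For the double knockdown against SP1 siRNA, ATG14 turned from -0.31 to 0.20 in the additive model (0.15 and 0.13 without control 1 and control 2) and ATG12 from -0.22 to 0.58 (0.49 and 0.46). These additive values restate the term for SP3 siRNA against the controls. MAP1LC3B in the double knockdown against SP3 siRNA turned from 0.22 to -0.026, and to -0.016 without control 1. These additive values, and the median for that comparison, restate the term for SP1 siRNA against the controls. The cause of the losses with no filter was not tested.

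With scaling over all genes above 0, the split of all genes called (higher and lower) went from 3103 and 4250 to 4100 and 3249 between SP3 and SP1 siRNA. It went from 2467 and 3099 to 3192 and 2439 for the double knockdown against SP1 siRNA, and from 2104 and 1767 to 1688 and 2340 against SP3 siRNA. Scaling on tested genes, chosen after seeing the data, moved the median of all genes by -0.06 with SP1 siRNA and 0.08 between SP3 and SP1 siRNA.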
